A study of Mus musculus with 2 samples.

Results

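The genes described here encode the proteins that give a red cell its membrane skeleton and its surface. They are the band 3 anion exchanger and the proteins around it, the spectrins, the actin junctional complex that joins spectrin filaments, blood group and other surface proteins, and the main transporters, channels and carbonic anhydrases. The 32 genes were listed by name for these roles, and every probe on the array whose transcript accession belongs to one of them was taken. All 32 were among the 20656 genes named on the array, through 53 probes.

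Primitive erythroid progenitors were compared between wild-type (WT) mice and mice lacking endothelial cell-selective adhesion molecule (ESAM-KO), both C57BL/6 and 8 to 12 weeks old. Each mouse had received a single injection of 120 mg/kg of 5-fluorouracil (5-FU), a drug that kills dividing marrow cells, and the marrow was taken 8 days later. The cells were sorted as the pre CFU-E fraction, which precedes the erythroid colony-forming unit. These cells lack lineage markers and Sca1, carry c-Kit, endoglin and CD150, and have little CD41 and little or no FCgRII/III. RNA of each genotype came from a pool of 3 mice and was amplified, labelled with Cy3 and hybridised to 1 Agilent SurePrint G3 mouse array. The deletion is carried by the whole animal and so also by the endothelium, which makes ESAM too. With 1 array for each genotype no SD or p-value can be given, and a difference due to genotype cannot be told apart from one between pools, sorts or amplifications. Fewer cells of a type and less RNA in each cell cannot be told apart either.

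A red cell keeps its shape because a net of spectrin lies under its membrane and is fixed to it at 2 kinds of site. At one, ankyrin and protein 4.2 link spectrin to band 3 and to the Rh complex. At the other, the spectrin ends meet on a short actin filament with protein 4.1, adducin, dematin, tropomyosin and tropomodulin, which is held by glycophorin C and p55. Many of these proteins are made in rising amounts as erythroblasts mature.

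The 75th percentile of the spot signal was 201.4 for WT and 251.1 for ESAM-KO. Each array was set to that percentile on the log2 scale, which takes 0.32 off each log2 ratio (ESAM-KO/WT) relative to unscaled signals. Signals below are given as deposited and ratios after scaling, so that a probe with the same signal on both arrays has a log2 ratio of -0.32. A gene is represented by its brightest probe. Where a probe was well above background on 1 array only, the ratio is a bound ("at least"), taken against the lowest detected signal of the dim array, 12.6 for WT and 13.2 for ESAM-KO, or against the probe's own signal where that was higher. The error of a single log2 ratio as computed by the scanner software was 0.20 at the median over the measured members, and it covers the spot but not the pool or the amplification. The Esam probe read 27.4 for WT and 20.6 for ESAM-KO, which is a log2 ratio of -0.73 with an error of 0.31. It was well above background on both arrays, though near the lowest such signals, and was less than 2-fold lower in ESAM-KO, so that the array alone does not establish the genotype. The 8 erythroid progenitor markers were all detected in both genotypes, and their summed scaled signal was 87.0 for WT and 86.4 for ESAM-KO. Among them Nfe2 was more than 2-fold lower, at -1.34, and Zfpm1, Gata1, Klf1 and Epor were at -0.60, -0.34, -0.32 and -0.10. Tfrc, Tal1 and Lmo2 were at 0.89, 0.32 and 0.16. The sum thus joins rises and falls, and the median log2 ratio of the 8 was -0.21. All 4 genes of the positive sort markers were also detected, with a sum of 19.1 and 14.5 and a median log2 ratio of -0.47. Markers of some other cell types differed between the arrays. All 8 neutrophil markers were more than 2-fold lower in ESAM-KO, and their summed scaled signal was 242.7 for WT and 35.5 for ESAM-KO. Of 6 B cell markers, 4 were lower, with a sum of 2.45 and 0.691. Of 6 mast cell, basophil and eosinophil markers, 2 were lower, 1 was higher and Cpa3, Mcpt8 and Fcer1a were well above background on neither array, with a sum of 7.61 and 0.767. The macrophage sum was 33.95 and 30.2, most of it from Csf1r, with Vcam1 more than 2-fold lower, C1qa more than 2-fold higher and Mrc1 not well above background, and the endothelial sum was 11.8 and 9.90, with Pecam1 more than 2-fold lower, Tek more than 2-fold higher and Cdh5 not well above background. The sum was 7.72 and 8.28 for megakaryocyte markers, of which Ppbp and Gp9 were lower and Vwf higher by more than 2-fold. For T and NK cell markers it was 11.99 and 14.1, most of it from Nkg7, with Cd3g, Cd8a and Klrb1c well above background on neither array. For the genes of the negative sort markers it was 1.29 and 0.697. Of these, Ly6a was lower by more than 2-fold and Fcgr2b was well above background on neither array. The part of these cells in the ratios below was not tested.

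Most red cell membrane genes measured on both arrays were within 2-fold. Counting bounds, 4 members were more than 2-fold lower in ESAM-KO, and 3 of the 4 encode band 3 or proteins of its complex. Of these, Epb42 was a bound. Of the 31 members with a ratio, 4 were more than 2-fold lower in ESAM-KO, namely Slc4a1, Epb42, Rhd and Sptbn1, and 1 was higher, Xk. That is 12.9% lower and 3.23% higher, beside 8.42% lower and 6.99% higher among the 14133 genes with a ratio. Of the other 26, 23 were measured on both arrays and within 2-fold, and Sptb, Sptan1 and Dmtn had only a bound under 2-fold, which does not place them on either side of the line. The remaining member, Tmod1, was well above background on neither array. Among the 27 members measured on both arrays the median log2 ratio was -0.20, with a range from -2.87 to 1.06, and the median over all 12613 genes so measured was -0.02. Of the 27, 19 were below 0, and without scaling 8 were below 0 and their median was 0.12. The distance between the median of the members and that of all genes was -0.18. Scaling moves both medians by the same amount, so it cannot change this distance. With the mean of the probes of each gene these medians were -0.12 and -0.02, and with dim probes not filtered out they were -0.19 and -0.14.

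**Figure D1:**
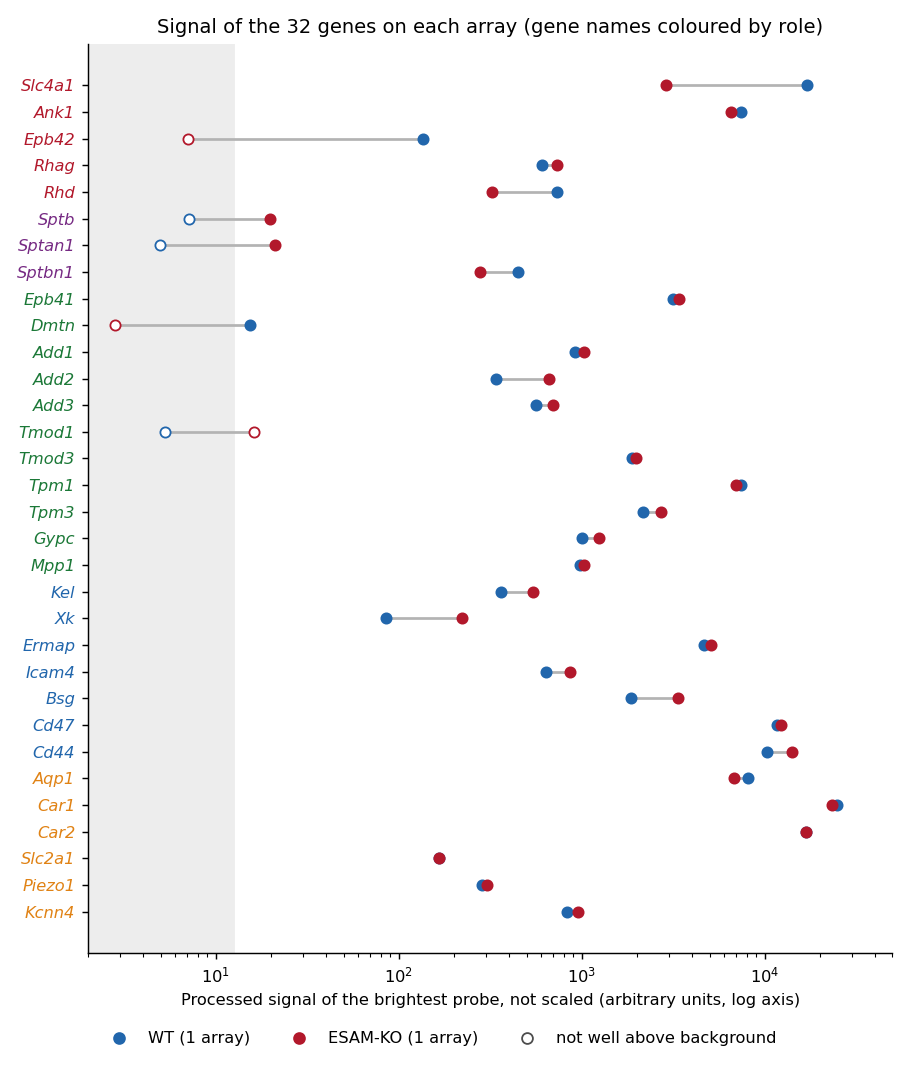
Processed signal of the brightest probe of each of the 32 genes for WT (blue) and ESAM-KO (red), not scaled, on a log axis; open circles were not well above background, and the shaded range lies below the lowest WT signal that was. The longest distances between the arrays are those of Slc4a1 (17035 and 2904) and Epb42 (136 and 7.06).

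Most members were bright, and few bright genes of the array were past 2-fold. Of the 27 measured on both arrays, 14 lay in the brightest quartile of signal, 11 in the second brightest, 2 in the second dimmest and 0 in the dimmest. Across all genes the share past 2-fold in either direction was 2.63% in the brightest quartile, 10.8% in the second brightest, 19.1% in the second dimmest and 17.9% in the dimmest. Slc4a1 was the member past 2-fold in the brightest quartile, where its ratio was the fifth lowest of 3153 genes. Rhd and Sptbn1 lay in the second brightest quartile, where 2 of 11 members were past 2-fold. Xk lay in the second dimmest quartile. In the brightest 10%, 1262 genes had a median log2 ratio of 0.01, and the 9 members there, Slc4a1, Ank1, Aqp1, Tpm1, Car1, Car2, Cd47, Cd44 and Ermap, had a median of -0.41.

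**Figure D2:**
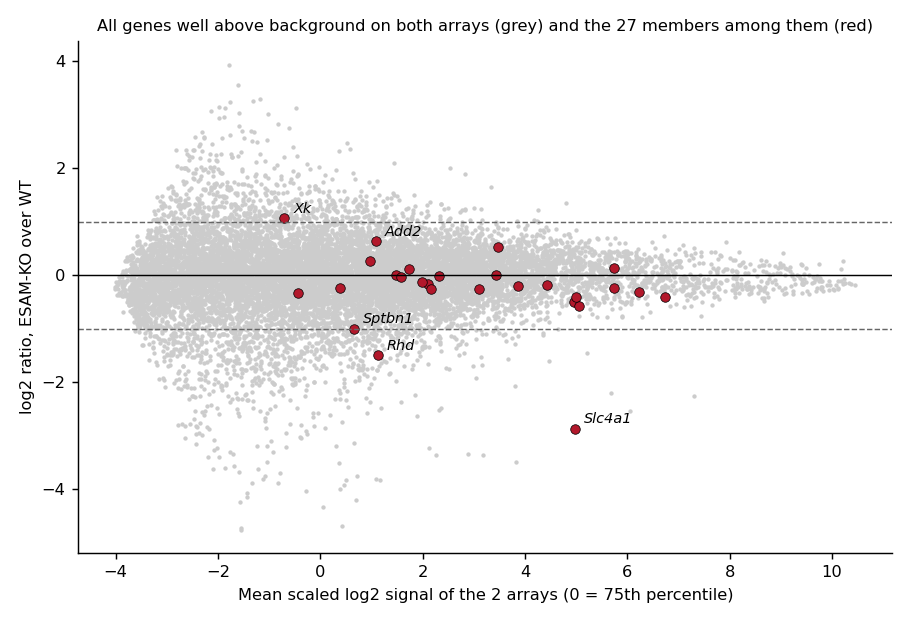
Each point is 1 gene well above background on both arrays, with the mean scaled log2 signal of the 2 arrays on the horizontal axis and the log2 ratio (ESAM-KO/WT) on the vertical axis; the 27 members measured on both arrays are red and the dashed lines mark 2-fold. The ratios spread less at high signal, where Slc4a1 stands apart at -2.87.

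Promoter sequences were taken from RefSeq for the members whose ratios are contrasted below, as the stretch of 250 bases before the transcription start on the strand of the gene in GRCm38.p6. Epb42 and Rhd were lower in ESAM-KO, Rhag and Kel were within 2-fold, and Xk was higher. Capitals mark each match to a GATA motif, searched on both strands as AGATAA or TGATAA, so that TTATCT and TTATCA are matches on the other strand. The stretches are chr2:121036878-121037127 on the minus strand for Epb42, chr4:134864286-134864535 on the plus strand for Rhd, chr17:40810899-40811148 on the plus strand for Rhag, chr6:41704326-41704575 on the minus strand for Kel and chrX:9272534-9272783 on the plus strand for Xk.
Epb42: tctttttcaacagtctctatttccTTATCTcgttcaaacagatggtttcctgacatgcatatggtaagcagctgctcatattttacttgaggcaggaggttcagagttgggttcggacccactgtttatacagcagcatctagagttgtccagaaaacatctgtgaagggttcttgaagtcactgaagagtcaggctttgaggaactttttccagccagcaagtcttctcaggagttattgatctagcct
Rhd: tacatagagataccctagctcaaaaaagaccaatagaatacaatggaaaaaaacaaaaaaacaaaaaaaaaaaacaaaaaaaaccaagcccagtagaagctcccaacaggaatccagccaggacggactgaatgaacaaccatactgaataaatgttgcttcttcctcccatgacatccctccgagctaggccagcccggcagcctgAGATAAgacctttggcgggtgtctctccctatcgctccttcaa
Rhag: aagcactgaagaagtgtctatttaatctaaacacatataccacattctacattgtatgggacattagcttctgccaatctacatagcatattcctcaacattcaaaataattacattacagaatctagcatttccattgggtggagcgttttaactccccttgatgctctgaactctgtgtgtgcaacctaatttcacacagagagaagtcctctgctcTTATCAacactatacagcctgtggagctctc
Kel: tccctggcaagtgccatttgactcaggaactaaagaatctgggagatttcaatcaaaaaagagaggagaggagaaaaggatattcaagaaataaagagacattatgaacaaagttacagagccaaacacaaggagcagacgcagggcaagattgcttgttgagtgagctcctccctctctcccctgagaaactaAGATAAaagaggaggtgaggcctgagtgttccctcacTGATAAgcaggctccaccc
Xk: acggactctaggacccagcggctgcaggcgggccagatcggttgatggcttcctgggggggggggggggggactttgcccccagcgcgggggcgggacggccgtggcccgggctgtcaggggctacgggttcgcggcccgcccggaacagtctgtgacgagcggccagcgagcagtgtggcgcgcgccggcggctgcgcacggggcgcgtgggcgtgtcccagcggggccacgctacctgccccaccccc

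The match in Epb42 ended 221 bases before the start, that in Rhd 38 bases and that in Rhag 26 bases. Kel had matches 51 and 14 bases before the start, and Xk had none in this window. In the full window of 300 bases, which runs to 50 bases after the start, 11 of the 24 members with a promoter in the RefSeq table held the motif in at least 1 promoter, or 45.8%, and among all 27025 genes of the table the share was 21.0%. Counted by promoter, the shares were 35.5% of 31 and 18.6% of 32851. The 11 members were Epb42, Rhd, Rhag, Kel, Ermap, Icam4, Mpp1, Add3, Cd44, Tpm3 and Sptbn1. Of these, 3 were more than 2-fold lower in ESAM-KO and none was higher, and of the 12 with a ratio among the 13 without a match none was lower and Xk was higher, beside 8.42% lower and 6.99% higher among all genes with a ratio. The 3 were Epb42, Rhd and Sptbn1, and the probes of Sptbn1 differed in direction. The median log2 ratio of the members measured on both arrays was -0.02 over the 10 with a match and -0.21 over the 10 without. The motif CCACACCC, bound by factors of the Klf family, was in the window of 1 of the 24, Kcnn4, or 4.17%, and in 4.09% of all genes, searched on both strands. A match describes the letters of the window and not a site in use. Slc4a1, Ank1, Dmtn, Gypc, Tmod3, Bsg, Car1 and Car2 were not in the table.

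Band 3, protein 4.2 and the Rh blood group protein were lower in ESAM-KO, while ankyrin and the Rh-associated glycoprotein were within 2-fold. Of these 5 genes of the bridge between band 3 and ankyrin, 3 were lower by more than 2-fold and none was higher. Among all 14133 genes with a ratio, 8.42% were lower and 6.99% higher. The bridge genes, like all lists, were chosen with earlier results of these data known, so their count is not independent of those results. Their median log2 ratio was -0.99 over the 4 measured on both arrays. Slc4a1, band 3 itself, exchanges chloride for bicarbonate and is the main anchor of the skeleton. It read 17035 for WT and 2904 for ESAM-KO. This is 7.31-fold lower after scaling, a log2 ratio of -2.87 with an error of 0.20, and it was the 58th lowest of the 12613 genes measured on both arrays. Epb42, protein 4.2, binds band 3 to ankyrin. It read 136 for WT and 7.06 for ESAM-KO, where it was not well above background, which gives a difference of at least 12.9-fold. The WT signal itself was below the 75th percentile of its array. Rhd, the protein that carries the Rh antigen, read 734 for WT and 325 for ESAM-KO, which is a log2 ratio of -1.49 with an error of 0.20, or 2.82-fold lower. Rhag, its partner in the Rh complex and needed for it to reach the surface, read 606 for WT and 736 for ESAM-KO, which is a log2 ratio of -0.04. The members of the Rh complex therefore lay on different sides of the 2-fold line. Both promoters printed above hold a GATA motif near the start, and the part of the motif in these ratios was not tested. Ank1, ankyrin, which ties spectrin to band 3, read 7440 for WT and 6591 for ESAM-KO, which is a log2 ratio of -0.49. Each of these genes has 1 probe, so none has a second measurement. Slc4a1 and Rhd were lower by more than 2-fold under every scaling and normalization tried. Their log2 ratios ran from -3.00 to -2.55 and from -1.62 to -1.17. Each was read by 1 spot well above background on both arrays, so the filters, outlier rule and mean of probes could not move them. Epb42 was lower by more than 2-fold in every setting that gave it a ratio. It ran from -4.59 without the filter on dim probes to -1.47 with normexp background correction.

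**Figure D3:**
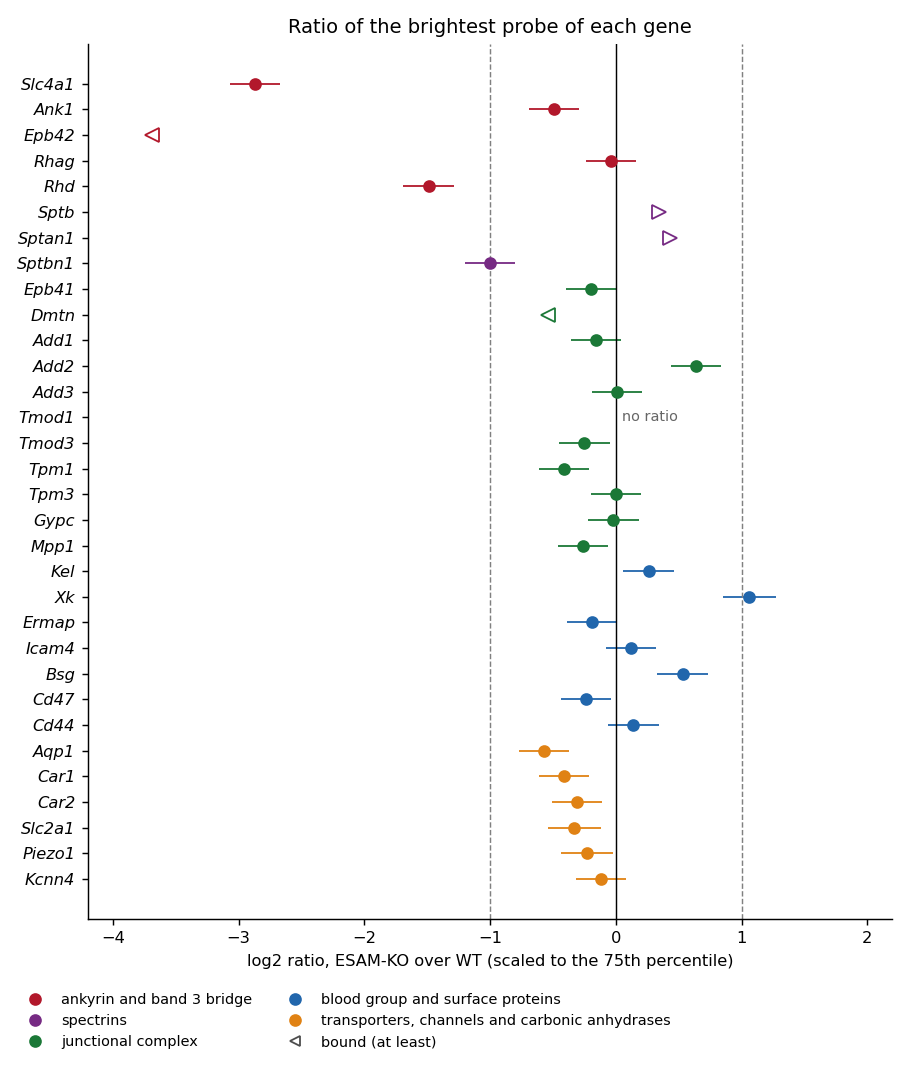
Log2 ratio (ESAM-KO/WT) after scaling for the brightest probe of each member, coloured by role; bars are the scanner software's error, open triangles are bounds that point in the direction of the larger difference, and dashed lines mark 2-fold. Slc4a1, Epb42 and Rhd lie to the left of the 2-fold line, Sptbn1 lies on it at -1.0 and Xk is just past it at 1.06.

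The spectrins, the long tetramers of the net, were poorly measured. Sptb, the beta chain of the red cell, read 7.12 in WT, not well above background, and 19.8 in ESAM-KO, which is at least 1.26-fold higher. Sptan1, the alpha chain of other tissues, read 4.99 and 21.2, at least 1.35-fold higher. Both signals in ESAM-KO were close to the lowest that counted as detected. Their log2 bounds, 0.34 and 0.43, were smaller than their scanner errors of 0.66 and 0.94. Sptbn1, the beta chain of other tissues, was the member nearest to the threshold. Its brightest probe read 448 for WT and 279 for ESAM-KO, 2.001-fold lower, and a second probe for the same transcript read 89.0 and 290, a log2 ratio of 1.39, higher by 2.62-fold. The 2 probes thus gave opposite answers, each past 2-fold, and the third was well above background on neither array, at 5.34 and 3.24. Sptbn1 was within 2-fold under 5 of the 10 other settings, and its mean over the probes was 0.19. Among the members measured on both arrays and within 2-fold, the nearest to the threshold were Aqp1 at -0.57 and Add2 at 0.64.

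In the junctional complex the 9 genes measured on both arrays were all within 2-fold, and their median log2 ratio was -0.16. Among all genes so measured, 7.4% were lower and 5.2% higher by more than 2-fold. Epb41, protein 4.1, which strengthens the contact of spectrin with actin, read 3154 for WT and 3423 for ESAM-KO, which is a log2 ratio of -0.20. Add1 and Add3, adducin chains made in many tissues that cap the growing end of actin, were at -0.16 and 0.01. Add2, the adducin chain of red cells and brain, was higher, from 342 in WT to 664 in ESAM-KO, a log2 ratio of 0.64 with an error of 0.20, the highest of the complex. Tmod3, which caps the other end of the filament, was at -0.25, with signals of 1885 and 1979. Tmod1, the tropomodulin of mature red cells, read 5.30 and 16.2 and was well above background on neither array. Tpm1 and Tpm3, tropomyosins that lie along the filament, were at -0.41 and 0.00. Gypc, glycophorin C, read 1006 and 1241, a log2 ratio of -0.02. Mpp1, the p55 scaffold that joins glycophorin C to protein 4.1, was at -0.26. Dmtn, dematin, which bundles actin, read 15.4 for WT and 2.83 for ESAM-KO, at least 1.45-fold lower. This bound, -0.54 on the log2 scale, was smaller than its scanner error of 1.48 and leaves its side of the 2-fold line unknown. Its WT signal was close to the lowest that counted as detected.

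Blood group and other surface proteins held the single member that was higher by more than 2-fold. That is 1 of 7, or 14.3%, beside 6.99% higher among all genes with a ratio. Over these 7 genes the median log2 ratio was 0.14, and 5 of the 7 were above 0, as were all 7 without scaling and 4 with median scaling. Xk, the carrier of the Kx antigen, which is bonded to the Kell glycoprotein in the membrane, read 85.6 for WT and 223 for ESAM-KO, which is a log2 ratio of 1.06 with an error of 0.21, so that the 2-fold line lies within the error. Its other probe read 82.97 and 134, a log2 ratio of 0.37, in the same direction but within 2-fold. Xk was within 2-fold with median scaling, with normexp and as the mean of its probes, at 0.93, 0.63 and 0.72. Kel, the Kell glycoprotein, an endopeptidase, read 363 for WT and 542 for ESAM-KO, which is a log2 ratio of 0.26. Bsg, basigin, which accompanies lactate transporters to the membrane, read 1861 and 3361, a log2 ratio of 0.53. Icam4, an adhesion protein that binds integrins of neighbouring cells, was at 0.12. Ermap, an immunoglobulin family protein of erythroid cells that carries the Scianna antigens, was at -0.19, with signals of 4637 and 5070. Cd47, which tells macrophages not to engulf the cell, read 11637 and 12285, a log2 ratio of -0.24. Cd44, the hyaluronan receptor, whose amount falls as erythroblasts mature, read 10278 for WT and 14129 for ESAM-KO, which is a log2 ratio of 0.14.

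Transporters, channels and carbonic anhydrases lay below 0 together and none was past 2-fold. Among all genes with a ratio, 8.42% were lower and 6.99% higher by more than 2-fold. Of all genes measured on both arrays, 51.5% were below 0. All 6 had log2 ratios between -0.57 and -0.12, with a median of -0.32, and without scaling 3 of the 6 were below 0 and the median was -0.00. Aqp1, the water channel, had the lowest ratio of them, with 8167 for WT and 6845 for ESAM-KO. Car1 and Car2, the carbonic anhydrases that convert carbon dioxide and bicarbonate for exchange by band 3, read 24829 and 23293 and 16756 and 16843, with log2 ratios of -0.41 and -0.31. The enzymes that supply band 3 with its substrate were thus both within 2-fold, unlike band 3. Slc2a1, the glucose transporter, read 167 and 165, a log2 ratio of -0.33. Piezo1, which opens on stretch and lets calcium in, and Kcnn4, the calcium-activated potassium channel, were at -0.23 and -0.12.

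Members made chiefly by the red cell lineage were compared with members made by many cell types. Of the 15 lineage members, 14 had a ratio, 3 were lower by more than 2-fold, or 21.4%, and 1 was higher, or 7.14%, with a median of -0.04 over 11 measured on both arrays. Of the 17 others, 1 was lower, or 5.88%, and none was higher, with a median of -0.23 over 16. Beside these stand the 8.42% lower and 6.99% higher of all genes. The lineage members past 2-fold went both ways.

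Several skeleton proteins have a form typical of red cells and forms made widely, and 8 such sets were set side by side. The median log2 ratio was -0.31 over 6 red cell forms measured on both arrays and -0.21 over 9 forms counted as widely made. These names are loose. Epb41 was taken as a red cell form here but stands above among the members made by many cell types, and Rhbg, counted as widely made, belongs to epithelia. Slc4a1, at -2.87, lay further from its relative than any other red cell form with a measured pair, with Slc4a2, the anion exchanger of most tissues, at -0.55. Ank1 was at -0.49, and its relative Ank3 was well above background on neither array. Ank2, another relative, read 2.78 for WT, not well above background, and 17.9 for ESAM-KO, near the lowest detected signals. Its bound, at least 1.14-fold higher or 0.19 on the log2 scale, was smaller than its scanner error of 1.47. Add2 was at 0.64 beside Add1 and Add3 at -0.16 and 0.01. The relatives of Epb41, at -0.20, were Epb41l2 at -0.21 and Epb41l3 at 0.95. Rhag and Rhbg, an ammonia transporter of epithelia, were at -0.04 and 0.06, and Rhcg was not well above background. Rhbg read 17.7 for WT and 22.9 for ESAM-KO, close to the lowest signals that counted as detected.

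**Figure D4:**
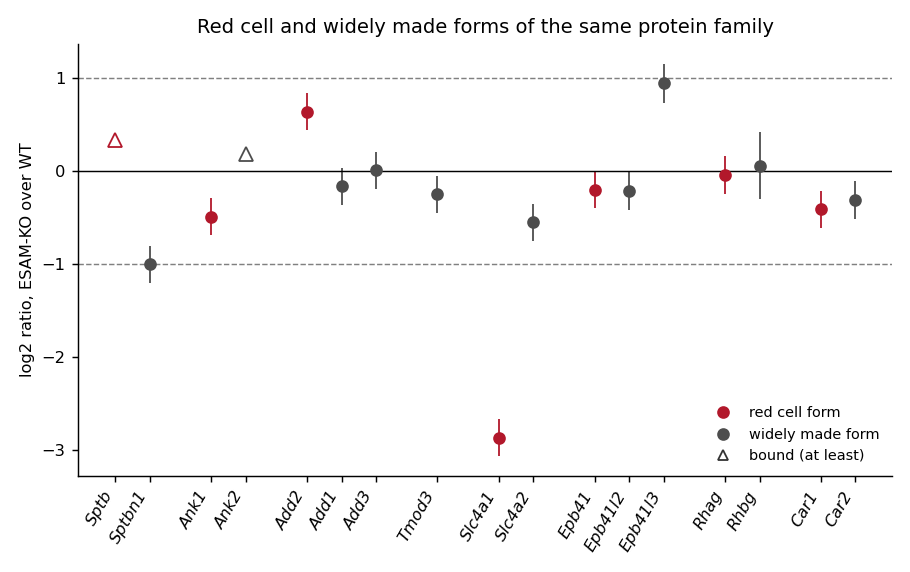
Log2 ratio (ESAM-KO/WT) for the brightest probe of red cell forms (red) and widely made forms (grey) of the same protein family, set by set; bars are the scanner software's error, open triangles are bounds, and genes without a ratio are not drawn. The point of Slc4a1 lies far below that of Slc4a2, while the other sets lie within about 1 log2 unit of 0.

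Of the 32 members, 21 have 1 probe and 11 have more, and the latter allow a second reading of the same gene. All probes well above background on both arrays had ratios on the same side of 0 for 6 of the 11, or 54.5%, and for 58.1% of the 3056 genes with several such probes. The probes of a member spanned 0.77 at the median on the log2 scale, with a maximum of 2.39 for Sptbn1, and those of all genes 0.47. The other probes of Epb41 were at -0.91 and -0.28, that of Add1 at -0.95, that of Cd47 at -0.54 and that of Car1 at -0.53. Ermap had further probes at 0.13 and -0.21. Tpm1 was measured by 5 probes, which name 4 transcripts of the gene, with log2 ratios of -0.48, -0.41, -0.03, -0.00 and 0.35. For Tpm3, another probe was at 0.78. The third, not well above background in WT, was at least 1.02-fold higher, a log2 bound of 0.02 with a scanner error of 0.58. Cd44 had further probes at -0.12 and 0.76 and 1 that was at least 2.32-fold higher, not well above background in WT. Mpp1 had the only member probe printed many times on the array. Its 9 spots without an outlier flag read between 370 and 411 in WT and between 578 and 640 in ESAM-KO, before scaling. After scaling, the log2 ratios of the spots ran from 0.18 to 0.38, with a mean of 0.32 and an SD of 0.06. Over the 186 such repeated probes well above background on both arrays, the median SD was 0.11. The spots show how well a probe was read, and the other probes of Mpp1 were nevertheless at -0.26 and -0.62. For Mpp1 the distance between probes was thus larger than the spread between spots.

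**Figure D5:**
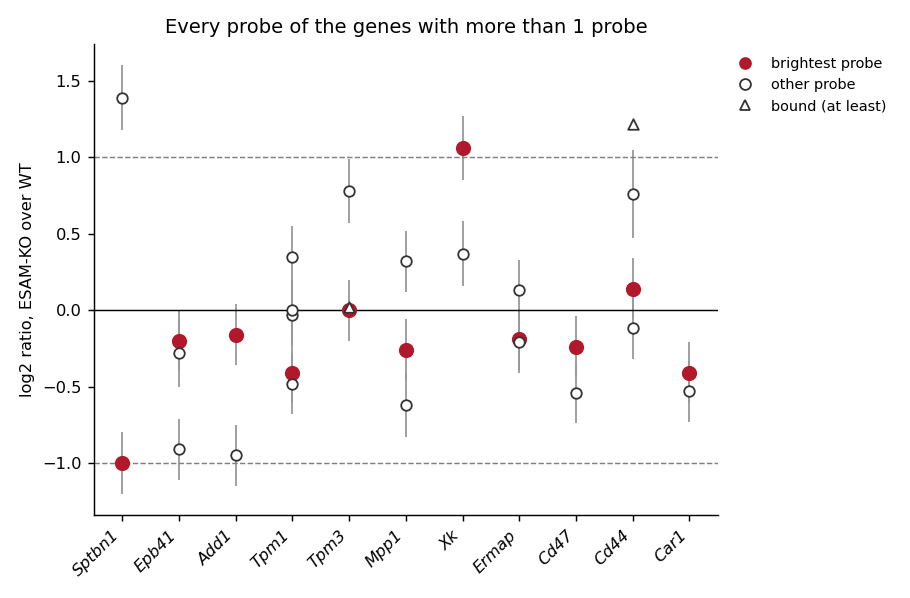
Log2 ratio (ESAM-KO/WT) for every probe of the 11 members with more than 1 probe; filled circles are the brightest probe, open circles the others, triangles bounds, and bars the scanner software's error. The probes of Sptbn1 lie on opposite sides of both 2-fold lines, at -1.0 and 1.39, and those of Xk at 1.06 and 0.37.

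Further genes of the red cell membrane, which are not among the members, were listed for comparison. Of 28 such genes, 25 had a ratio, 2 were lower by more than 2-fold and 3 were higher. The median log2 ratio was -0.25 over the 23 measured on both arrays and -0.19 with the bounds included. Cd59a, which protects cells from complement, was at -1.13, and Slc12a7, a potassium chloride cotransporter, at -1.03. Slc12a4, its relative, was at 1.04, and the 2-fold line lay within the scanner error of each of these 3. Cd59a has a close copy, Cd59b, whose probe was well above background on neither array, and whether the probe of one also reads the other was not tested. Ackr1, the Duffy chemokine receptor, read 7.02 and 41.0, at least 2.62-fold higher, and Aqp3, a channel for glycerol and water, was at least 2.07-fold higher, both not well above background in WT. Of 24 named genes of the actin cortex and its caps, 22 had a ratio. Of these, 1 was lower and 1 higher by more than 2-fold, or 4.5% each, beside 8.42% and 6.99% of all genes. The median was 0.02 over the 21 measured on both arrays and 0.10 with the bound included. In that list Mpp2, a relative of p55, was lower, with 872 for WT and 95.9 for ESAM-KO, which is a log2 ratio of -3.50, and Capza2, a subunit of the actin capping protein, was higher, with 884 and 2486, a log2 ratio of 1.17.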

How the data were processed

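Each array came as deposited by the authors from Agilent Feature Extraction 10.10.1.1, which gives a processed intensity for every spot, background-subtracted and detrended but not scaled between arrays. The series table the authors deposited gives these intensities to 3 significant digits. Control spots and 254 outlier spots were left out. Probe values are means of log2 spot values, and detection of a probe required more than 50% of its spots to be well above background. Accessions were named through RefSeq of GRCm38.p6, used for names and promoters only. The 2-fold criterion of the study was kept. All members were accounted for, and of the other lists the genes past 2-fold and the isoform sets were named. Some genes of these other lists are not reported here. The members and all lists were chosen with earlier results of these data known. The alternatives were other scalings, normexp with an offset of 50 on median spot signals, the series table, other filters, outlier spots kept, the mean of probes and a 3-fold threshold. The counting was tested on simulated data with large changes in bright genes and little noise, which does not bear on calls near 2-fold or near background. Software was Python 3.11.15 (pandas 2.3.3, numpy 2.4.6, matplotlib 3.10.9) and R 4.3.3 (limma 3.58.1). Precision is limited by the number of arrays.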

Additional observations from a re-analysis of the deposited data

How the results depend on the processing

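No paired analysis was possible because there was 1 array for each genotype. The number of members lower by more than 2-fold, 4, was 2 at 3-fold, Slc4a1 and Epb42, and within 1.5 times of 4 under the other settings. The number higher, 1, was 0 with median scaling, with normexp and quantile normalization, with the mean of probes and at 3-fold, and 4 without the filter on dim probes. The median log2 ratio of the members, -0.20, was 0.12 without scaling, where the median of all genes moved by 0.32. That of the red cell forms, -0.31, was 0.01 without scaling. Median scaling moved the median of all genes by -0.13 and dropping the filter by -0.12. Without scaling, 5.12% of genes were lower and 12.7% higher by more than 2-fold. Sptbn1 changed direction to 0.19 with the mean of probes. Of 306 values of single members under 10 settings, 267 stayed within the spot error of the gene, 38 moved by more, and 1 that was past 2-fold, that of Sptbn1, changed direction. A member with 1 probe well above background on both arrays could not move under the filters or the mean of probes. Sptb, Sptan1, Dmtn and Tmod1 went past 2-fold when dim probes were not filtered, and under no other setting.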
